A study of Mus musculus with 6 samples.

Results

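The transcripts described here are those of the tumour necrosis factor (TNF) superfamily of cytokines, of the TNF receptor superfamily, and of the adaptors TRADD and TRAF1 to TRAF7. Members were chosen by gene symbol and no value entered the rule, though earlier results of these data were known. Every row of the count table named Tnfsf, Tnfrsf or Traf with a number was taken. Tnf, Lta, Ltb, Ltbr, Cd40, Fas, Cd27, Ngfr, Eda2r, Edar and Tradd were added. This gave 49 of the 24421 genes in the table, namely 14 ligands, 27 receptors and 8 adaptors. RNA was sequenced from engineered skeletal muscle made of C2C12, an immortalised mouse myoblast line that fuses into myotubes, embedded in type I collagen between artificial tendons. The vehicle group received phosphate-buffered saline and the other group 100 ng/mL TNF-alpha, both for 72 h, with 3 constructs each. Both groups share the line, the collagen gel and the differentiation in horse serum, and the labels name no genetic change. The species of the added TNF-alpha is not given in the sources used here. All constructs derive from 1 cell line, and the labels call them biological replicates without saying whether they were cast from separate cultures. The p-values therefore reflect how much these constructs vary, which may be technical. RNA was pooled over all cells of a construct, so fewer cells of a type and less RNA per cell cannot be told apart.

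TNF superfamily ligands are trimeric, mostly membrane-bound proteins that can be shed, and each binds 1 or more receptors. Several receptors with a cytoplasmic death domain recruit TRADD or FADD and can lead to cell death. Receptors of another type bind TRAF proteins directly and signal to NF-kB and the stress kinases. Decoy receptors bind ligand without a functional death domain, or are secreted. TNF is also known as cachectin, and in muscle TNF, TWEAK (Tnfsf12) and their receptors are studied in wasting and in regeneration.

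Promoter windows of 3 adaptor and receptor genes that rose are shown first. They were read from RefSeq on GRCm38.p6 and cover the 250 bases before an annotated start. Capitals mark matches to the NF-kB (kB) consensus, searched on both strands. Tnfrsf9 and Traf3 were the risen members with a match, and Traf1, the adaptor with the largest rise, is shown as a window without one.
Tnfrsf9, chr4:150927749-150927998, plus strand: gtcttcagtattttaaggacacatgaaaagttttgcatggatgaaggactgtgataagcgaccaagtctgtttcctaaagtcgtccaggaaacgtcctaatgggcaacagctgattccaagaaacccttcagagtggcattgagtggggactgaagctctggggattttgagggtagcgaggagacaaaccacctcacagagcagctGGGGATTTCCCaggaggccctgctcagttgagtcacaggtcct
Traf3, chr12:111166120-111166369, plus strand: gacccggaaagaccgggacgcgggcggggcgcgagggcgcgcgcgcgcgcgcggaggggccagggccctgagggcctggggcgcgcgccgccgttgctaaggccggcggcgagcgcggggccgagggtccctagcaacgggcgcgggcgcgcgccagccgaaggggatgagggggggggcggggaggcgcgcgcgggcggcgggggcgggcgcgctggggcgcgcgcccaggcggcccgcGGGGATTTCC
Traf1, chr2:34961773-34962022, minus strand: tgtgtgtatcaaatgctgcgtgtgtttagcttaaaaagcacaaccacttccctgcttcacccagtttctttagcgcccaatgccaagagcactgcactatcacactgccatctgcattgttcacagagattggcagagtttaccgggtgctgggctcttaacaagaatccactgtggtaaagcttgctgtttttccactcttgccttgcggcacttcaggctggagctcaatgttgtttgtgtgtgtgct
In Tnfrsf9 the run marked in capitals holds 3 overlapping matches. The first starts 43 bases before this start, and the others are the same 10 bases, from 42 bases before it, read on both strands. A second annotated Tnfrsf9 start, at which the window is chr4:150919905-150920154, had no match. In Traf3 the match occupies the last 10 bases before the start. Of the 49 members, 40 had an entry, with 44 windows of 300 bases (250 before and 50 after the start), and 4 genes held a match: Tnfrsf9, Traf3, Ltb and Tnfrsf8. Over all 32851 windows in the table, 4.51% held one. Of the 19 members that rose, 14 had an entry and 2 of these (Tnfrsf9 and Traf3) held a match, and of the 7 that fell, 6 had an entry and 0 held one. A match is a description of these letters, not evidence of binding.

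Library totals ranged from 81713008 to 93533748 counts. The groups separated along the first principal component. The 10 skeletal muscle markers were all detected. They summed to 12271 to 14353 CPM (counts scaled to a common library total) in vehicle libraries and 7970 to 9229 CPM in TNF-alpha libraries. Of these 10, Myog rose (669 to 878 CPM on average) and Acta1 did not pass the test, while the others fell. The 4 pan-leukocyte markers summed to 0.728 to 1.33 CPM in vehicle and 1.15 to 1.40 CPM in TNF-alpha libraries: Ptprc had 2 to 4 counts per vehicle library and 0 in each TNF-alpha library and Cd52 at most 1, whereas Coro1a had 48 to 100 counts and Laptm5 13 to 31, neither past the test. The 8 macrophage and monocyte markers summed to 14.7 to 15.5 CPM in vehicle and 91.6 to 108 CPM in TNF-alpha libraries. Of these 8, 5 rose: Cd14 (9.24 to 76.8 CPM on average), Cd68 (4.81 to 19.8 CPM), Mrc1 (0.455 to 2.25 CPM), Csf1r (0.246 to 1.44 CPM) and Lyz2 (0.130 to 0.313 CPM). Fcgr1 and Itgam did not pass, and Adgre1 had at most 2 counts. The part of such markers in the changes below was not tested. The 8 T, B and NK cell markers summed to at most 0.769 CPM, with Ncr1 at 0 in every library. The 6 fibroblast markers summed to 6448 to 7059 CPM in vehicle and 4444 to 5410 CPM in TNF-alpha libraries. Of these 6, Pdgfra rose, Thy1 was not tested and the others fell. The 6 endothelial markers summed to 2.49 to 3.68 CPM in vehicle and 1.32 to 1.59 CPM in TNF-alpha libraries. Of these 6, Tek fell (2.45 to 0.612 CPM on average). Pecam1 (0.234 to 0.393 CPM) and Cdh5 (0.342 to 0.390 CPM) did not pass, Kdr and Emcn were not tested, and Tie1 was at 0 in every library.

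More family members rose than fell after TNF-alpha. Of the 49 members, 41 had enough counts to be tested. With edgeR (quasi-likelihood, p adjusted by Benjamini-Hochberg over all genes tested, threshold 0.05), 19 rose, 7 fell and the other 15 did not pass. Values below are TMM-scaled CPM with the SD over 3 libraries, log2 fold changes with their SE, and edgeR's adjusted p. Over all 15792 genes tested, 55.5% were called, with 27.6% risen and 27.9% fallen. By at least 2-fold, 10 members rose (8.47% of all genes tested) and 6 fell (9.46%). The median log2 fold change of the 41 was 0.26, beside 0.0048 over all genes. Libraries of the 2 groups did not overlap in 28 tested members (64.5% of all genes tested), 21 with the TNF-alpha libraries above (32.6% of all genes tested) and 7 with them below (31.9%). The filter on low counts keeps a gene that is abundant in 1 group only, so these counts describe the tested members and are not evidence for the family. The filter asks for 3 libraries over its cutoff. Tnfrsf11a had 0 vehicle and 3 TNF-alpha libraries over it, and Tnfsf4 had 2 and 3. The vehicle group alone would have kept neither. Tnfrsf13c had 2 libraries over it in each group.

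**Figure D1:**
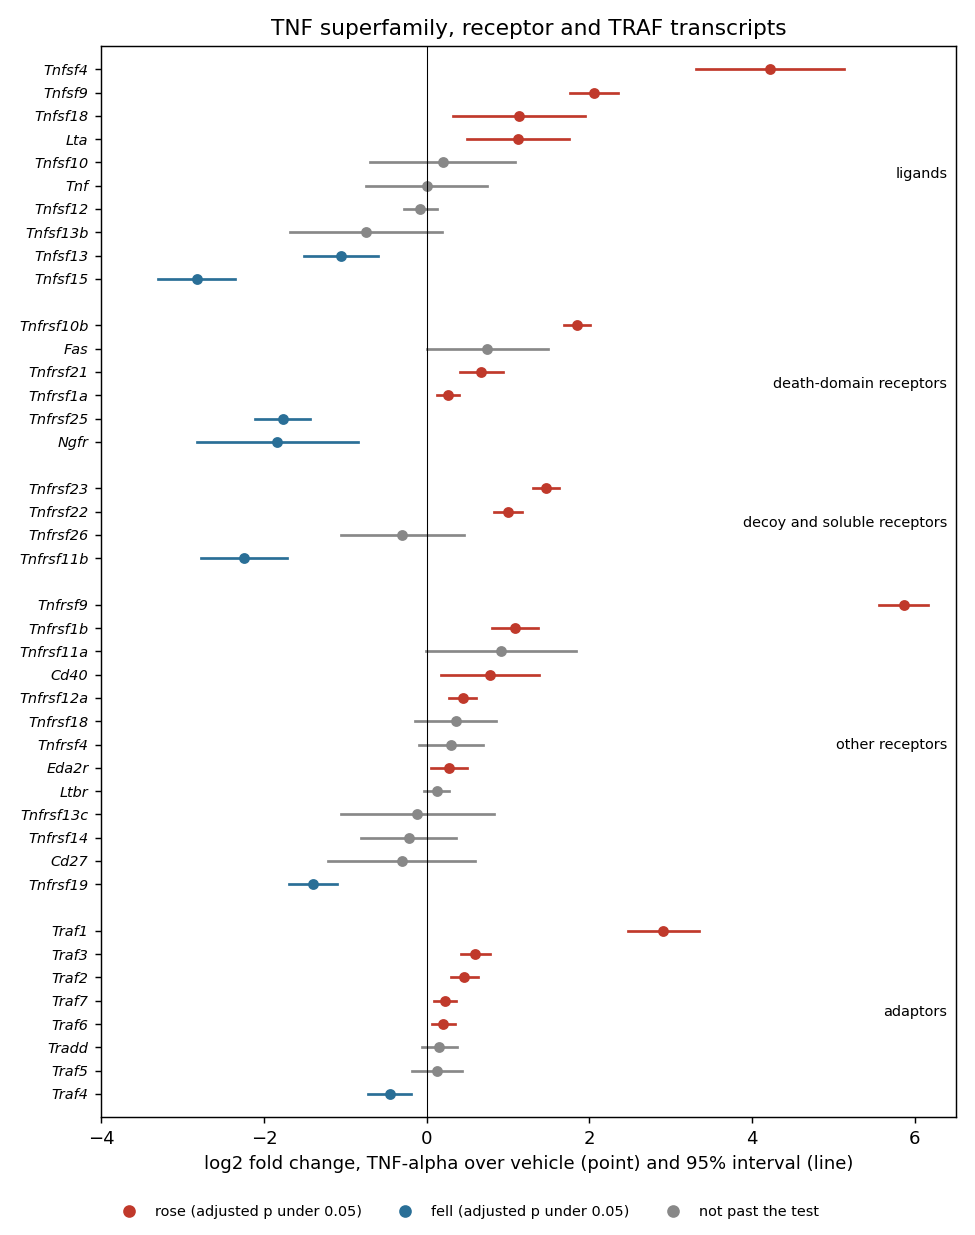
Log2 fold change of the 41 tested members (x axis, TNF-alpha over vehicle, 3 libraries each) by role, with lines for the 95% interval and colour for the edgeR call. The highest point is Tnfrsf9 at 5.86 and the lowest is Tnfsf15 at -2.83, and each role holds members on both sides of 0.

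Ligand transcripts were low except for Tnfsf9, Tnfsf12 and Tnfsf13. Of the 10 tested ligands, 4 rose and 2 fell, beside 27.6% and 27.9% of all genes tested. The Tnf transcript itself did not pass the test. Tnf (GRCm38, chromosome 17, 35199381 to 35202007, minus strand) had 37, 48 and 27 counts in the vehicle libraries and 44, 39 and 27 counts in the TNF-alpha libraries. The groups overlapped, and the 95% interval of the log2 fold change ran from -0.74 to 0.74, so smaller changes in either direction were not detectable at this depth. Lta, which encodes lymphotoxin alpha, a soluble ligand of the same receptors, lies 1.157 kb from Tnf. Its level was 0.348, 0.363 and 0.500 CPM in vehicle libraries and 0.792, 1.10 and 0.752 CPM in TNF-alpha libraries, without overlap (log2 fold change 1.12 ± 0.28, adjusted p = 0.00785). Ltb, on the other side of Tnf, had 0 to 6 counts per library and was not tested.

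Tnfsf9, the ligand of the T cell co-stimulator CD137, was the most abundant ligand after treatment. It measured 8.72, 12.3 and 10.7 CPM in vehicle libraries and 39.8, 47.6 and 44.4 CPM in TNF-alpha libraries. All TNF-alpha libraries lay above all vehicle libraries, a 4.16-fold rise (log2 fold change 2.06 ± 0.13, adjusted p = 5.43e-06). Its exons overlap those of Gm11110 on the opposite strand over 192 bases, and Gm11110 itself had 174 to 296 counts in vehicle and 470.0 to 596 counts in TNF-alpha libraries. Since the use of strand in counting is not given, a part of either count may belong to the other gene.

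Tnfsf4 encodes OX40 ligand, a co-stimulatory ligand of antigen-presenting cells. The gene lies on chromosome 1 (161395409 to 161418410, plus strand) and had 10, 11 and 10 counts in vehicle libraries and 152, 131 and 284 counts in TNF-alpha libraries. The third TNF-alpha library was the highest, and all exceeded the vehicle libraries, an 18.7-fold rise from a low base (log2 fold change 4.22 ± 0.40, adjusted p = 4.1e-05). Tnfsf18, the GITR ligand gene 76.2 kb from it on chromosome 1, had 38, 61 and 68 counts in vehicle and 167, 62 and 131 counts in TNF-alpha libraries. Here the groups overlapped, because the second TNF-alpha library lay within the vehicle range. Tnfsf18 rose by the test (log2 fold change 1.14 ± 0.36, adjusted p = 0.0235), but its adjusted p was 0.0833, 0.0576, 0.0814 and 0.078 without vehicle replicate 1, vehicle replicate 2, TNF-alpha replicate 1 and TNF-alpha replicate 3, and its alternatives spanned 0.00308 to 0.0833.

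The ligands that fell were Tnfsf15 and Tnfsf13. Tnfsf15 encodes TL1A, a cytokine of endothelial and myeloid cells. Its level was 3.999, 3.25 and 3.09 CPM in vehicle libraries and 0.589, 0.443 and 0.418 CPM in TNF-alpha libraries, a 7.09-fold fall without overlap (log2 fold change -2.83 ± 0.21, adjusted p = 1.03e-05). Tnfsf13 encodes APRIL, a survival factor of B cells and plasma cells. It measured 6.22, 5.15 and 3.83 CPM in vehicle and 2.83, 2.25 and 2.22 CPM in TNF-alpha libraries (log2 fold change -1.06 ± 0.20, adjusted p = 0.00196). Its exons share 983 bases with the read-through gene Tnfsfm13 on the same strand, which joins it to Tnfsf12, so the split of counts between the 3 genes is uncertain. Tnfsf12, encoding TWEAK, measured 14.9 to 17.8 CPM over all 6 libraries with overlapping groups (log2 fold change -0.08, 95% interval -0.28 to 0.13, adjusted p = 0.497).

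Among the remaining ligands, Tnfsf10, encoding the death ligand TRAIL, had 11.7 to 17.3 counts per library (95% interval of the log2 fold change -0.69 to 1.09, adjusted p = 0.69). Tnfsf13b, encoding the B cell factor BAFF, had 19 to 60 counts (adjusted p = 0.156, and 0.0494 without vehicle replicate 1, with a log2 fold change of -1.04, within a range of 0.0494 to 0.545). Tnfsf11, encoding the osteoclast factor RANKL, had 0 counts in all 3 vehicle libraries and 4, 27 and 18 counts in the TNF-alpha libraries. Against a floor of 3 counts per vehicle library its mean was at least 5.69-fold higher. It did not pass the filter on low counts, and with no filter its adjusted p was 0.00335. Tnfsf14, encoding LIGHT, also had 0 counts in vehicle libraries and 3, 6 and 2 counts in TNF-alpha libraries. Tnfsf8, encoding CD30 ligand, had 2, 2 and 0 counts in vehicle and 0 in every TNF-alpha library, too few for a comparison.

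**Figure D2:**
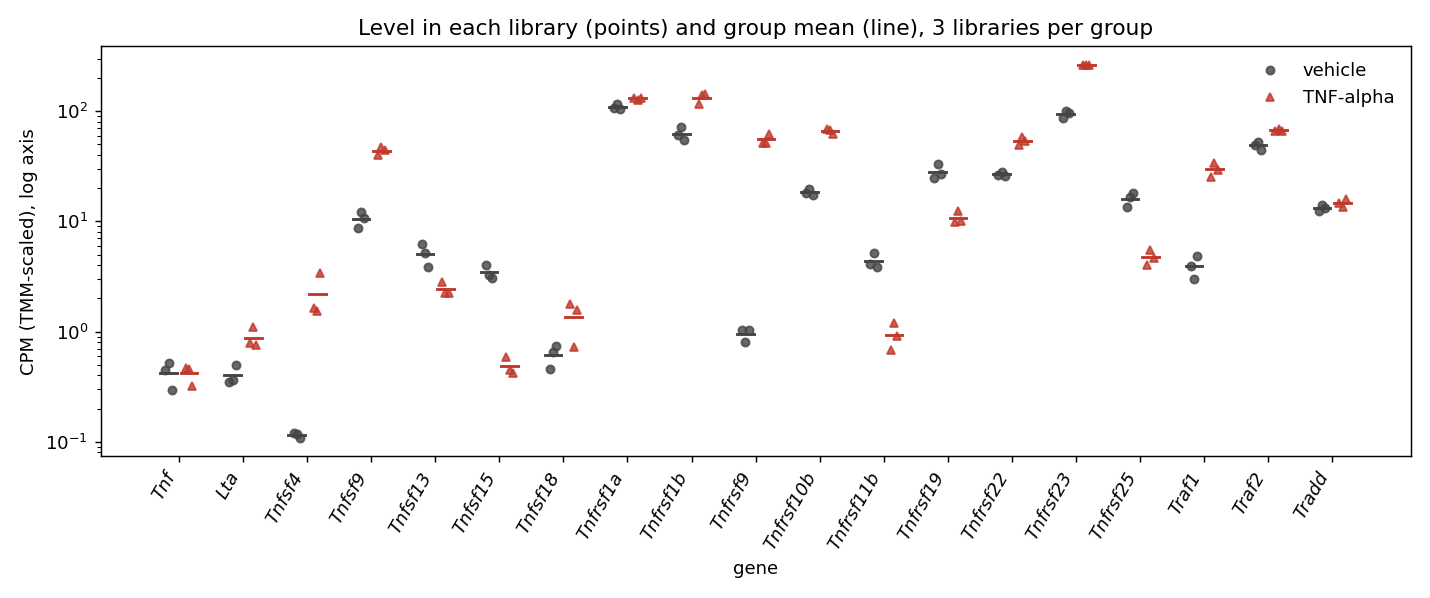
TMM-scaled CPM on a log axis for 19 members, with each library as a point (circles vehicle, triangles TNF-alpha) and the mean of 3 as a line. The Tnf means are 0.417 and 0.416 CPM, whereas Tnfrsf9 goes from 0.952 to 55.4 CPM and Tnfsf15 from 3.44 to 0.483 CPM.

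Both TNF receptor genes rose. Tnfrsf1a encodes the widely expressed receptor that carries a death domain. It measured 106, 116 and 105 CPM in vehicle libraries and 132, 128 and 133 CPM in TNF-alpha libraries, without overlap (log2 fold change 0.26 ± 0.06, adjusted p = 0.00597). Tnfrsf1b encodes the second TNF receptor, which binds TRAF2 and lacks a death domain. It measured 60.6, 72.5 and 54.8 CPM in vehicle and 115, 139.9 and 143 CPM in TNF-alpha libraries (1.08 ± 0.12, adjusted p = 1.64e-04). Per kilobase of exon, the level of Tnfrsf1b was 0.388 ± 0.035 of that of Tnfrsf1a in vehicle libraries (SD, n = 3). In TNF-alpha libraries this ratio, which does not depend on library scaling, was 0.689 ± 0.083. It was 0.354 to 0.423 in the vehicle and 0.594 to 0.744 in the TNF-alpha libraries, so the groups did not overlap. The ratio was chosen after its values were seen and was not tested.

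Among the 7 death-domain receptors, 3 rose (Tnfrsf1a included), 2 fell, Fas did not pass and Edar was not tested. Over all genes tested, 27.6% rose and 27.9% fell. Tnfrsf10b, the mouse receptor for TRAIL (DR5), measured 18.2, 19.7 and 17.5 CPM in vehicle libraries and 69.1, 68.1 and 62.5 CPM in TNF-alpha libraries. This was a 3.60-fold rise without overlap (log2 fold change 1.85 ± 0.07, adjusted p = 4.02e-07). Its counts had decimals in all 6 libraries. Tnfrsf21, encoding DR6, went from 9.27 ± 0.91 to 14.8 ± 1.78 CPM (n = 3; log2 fold change 0.67 ± 0.12, adjusted p = 0.0013), with decimal counts in all 6 libraries. Fas, the receptor of Fas ligand, measured 23.9, 27.5 and 12.98 CPM in vehicle and 43.9, 33.9 and 30.2 CPM in TNF-alpha libraries. Its groups did not overlap, but the third vehicle library was far below the other two and the test was not passed (log2 fold change 0.75 ± 0.30, adjusted p = 0.08). Fas did pass in 6 of 14 alternatives, among them DESeq2 (adjusted p = 0.0465), limma-voom (0.0264), no robust estimation (0.0366) and the fits without vehicle replicate 2 (0.0456) or replicate 3 (0.0355), within a range of 0.0228 to 0.195.

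The 2 death-domain receptors that fell were Tnfrsf25 and Ngfr. Tnfrsf25 encodes DR3, the receptor of TL1A. It measured 13.6, 16.5 and 18.1 CPM in vehicle and 4.01, 5.46 and 4.68 CPM in TNF-alpha libraries, a 3.41-fold fall without overlap (log2 fold change -1.77 ± 0.15, adjusted p = 1.96e-05). Ngfr, the low-affinity neurotrophin receptor p75, had 65.1, 46.2 and 139 counts in vehicle and 20.1, 27.2 and 21.1 counts in TNF-alpha libraries. All TNF-alpha libraries lay below, although the vehicle libraries spread widely (log2 fold change -1.83 ± 0.43, adjusted p = 0.00652). Edar, the ectodysplasin receptor, had 0 to 4 counts per library.

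The decoy receptors of the TRAIL type rose while osteoprotegerin fell. Tnfrsf23 and Tnfrsf22 are neighbouring mouse genes on chromosome 7 that encode TRAIL-binding receptors without a functional death domain. Tnfrsf23 measured 87.1, 101 and 96.0 CPM in vehicle and 261, 260.3 and 265 CPM in TNF-alpha libraries (log2 fold change 1.47 ± 0.07, adjusted p = 8.67e-07). Tnfrsf22 measured 26.4, 28.1 and 26.1 CPM in vehicle and 49.5, 57.9 and 53.9 CPM in TNF-alpha libraries (1.00 ± 0.07, adjusted p = 1.08e-05). Their longest protein-coding transcripts were 91.8% identical over 1451 aligned positions, and each had decimal counts in 5 of 6 libraries, so reads may be split between them. Both were without overlap between the groups. The third gene of the cluster, Tnfrsf26, 6.083 kb from Tnfrsf22, had 36 to 85 counts per library with overlapping groups (log2 fold change -0.30, 95% interval -1.06 to 0.46, adjusted p = 0.473). Summed per kilobase, Tnfrsf22 and Tnfrsf23 were 8.45 to 9.46 times the level of Tnfrsf10b in vehicle libraries. In TNF-alpha libraries they were 6.11 to 6.94 times its level. This ratio was chosen after its values were seen and was not tested. It depends on the exon length used, which for Tnfrsf23 was 3962 bases, beside 1476 in its longest protein-coding transcript.

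Tnfrsf11b encodes osteoprotegerin, a secreted receptor that binds RANKL and TRAIL. It measured 4.12, 5.17 and 3.89 CPM in vehicle libraries and 0.674, 1.20 and 0.907 CPM in TNF-alpha libraries. The groups did not overlap, and the fall was 4.74-fold (log2 fold change -2.25 ± 0.23, adjusted p = 6.3e-05). RANKL (Tnfsf11), as given above, had counts in the TNF-alpha libraries alone. Its signalling receptor gene Tnfrsf11a, encoding RANK, had 8.06 to 9.07 counts in vehicle and 12.6 to 20.5 counts in TNF-alpha libraries and was not past the test (log2 fold change 0.91 ± 0.40, adjusted p = 0.0847).

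Tnfrsf9 had the largest change of the family. It encodes CD137, a co-stimulatory receptor best known on activated T cells, and lies on chromosome 4 (150914562 to 150946102, plus strand). Its level was 1.03, 0.801 and 1.02 CPM in vehicle libraries, from 75 to 94 counts, and 51.5, 51.9 and 62.6 CPM in TNF-alpha libraries. This was a 58.2-fold rise (log2 fold change 5.86 ± 0.13, adjusted p = 3.77e-08), with a range of 5.75 to 5.92 on the log2 scale over 14 alternatives. The T, B and NK cell markers summed to 0.660 to 0.769 CPM in vehicle and 0.251 to 0.315 CPM in TNF-alpha libraries. They were thus lower in the libraries in which Tnfrsf9 was high. Per kilobase, the level of Tnfrsf9 was 0.031 to 0.056 times that of its ligand gene Tnfsf9 in vehicle and 0.517 to 0.668 times in TNF-alpha libraries. This ratio was chosen after its values were seen and was not tested.

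Of the other 15 receptors without an assigned death domain or decoy role, Tnfrsf1b (above), Tnfrsf12a, Cd40 and Eda2r rose and Tnfrsf19 fell. Tnfrsf12a encodes Fn14, the TWEAK receptor. Per kilobase of annotated exon it had the highest level of all 27 receptors in both groups, an order that depends on the length used. It went from 191, 194 and 214 CPM in vehicle to 288, 257 and 268 CPM in TNF-alpha libraries, without overlap (log2 fold change 0.44 ± 0.07, adjusted p = 8.6e-04). Tnfrsf19, an orphan receptor also called TROY, measured 24.8, 33.1 and 27.0 CPM in vehicle and 9.89, 12.3 and 10.1 CPM in TNF-alpha libraries. It fell 2.63-fold, without overlap (-1.39 ± 0.13, adjusted p = 4.07e-05).

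The calls for Cd40 and Eda2r were lost in several alternatives. Cd40, a receptor of antigen-presenting cells, measured 3.69, 1.83 and 3.80 CPM in vehicle and 5.18, 5.92 and 4.89 CPM in TNF-alpha libraries. It rose by the test (log2 fold change 0.78 ± 0.26, adjusted p = 0.0336), but the adjusted p was 0.0728, 0.0983 and 0.0639 without TNF-alpha replicate 1, 2 and 3, within a range of 0.00586 to 0.0983. Without vehicle replicate 2, its lowest library, the log2 fold change was 0.51. Eda2r, the receptor of ectodysplasin A2, measured 188, 215 and 174 CPM in vehicle and 209, 255 and 234 CPM in TNF-alpha libraries, with 1 TNF-alpha library inside the vehicle range. Its call (0.28 ± 0.10, adjusted p = 0.0412) was lost with upper-quartile scaling (0.0614) and without vehicle replicate 1 (0.116), vehicle replicate 3 (0.134), TNF-alpha replicate 2 (0.15) and TNF-alpha replicate 3 (0.113), within a range of 0.017 to 0.15.

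Ltbr, the lymphotoxin beta receptor, was abundant and not past the test (97.4 ± 4.81 and 106 ± 7.10 CPM; 95% interval of the log2 fold change -0.03 to 0.28, adjusted p = 0.155). Tnfrsf4 and Tnfrsf18, encoding OX40 and GITR, lie 9.551 kb apart on chromosome 4. Both had TNF-alpha libraries above all vehicle libraries without passing the test (log2 fold changes 0.30 and 0.36, adjusted p = 0.171 and 0.201). Tnfrsf14, Tnfrsf13c and Cd27 had log2 fold changes of -0.22, -0.12 and -0.31, none past the test, at 9 to 82 counts per library. Tnfrsf8, encoding CD30, had 0, 2 and 1 counts in vehicle and 5, 15 and 13 counts in TNF-alpha libraries. It did not pass the filter on low counts, and with no filter its adjusted p was 0.0144, within 0.00569 to 0.031 over the 5 alternatives that kept it. The B cell receptors Tnfrsf13b and Tnfrsf17 had at most 2 and 0 counts.

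Traf1 had the largest change of the 8 adaptors. Of these, 5 rose, 1 fell and the other 2 did not pass, beside 27.6% risen and 27.9% fallen over all genes tested. Traf1 encodes the TRAF that lacks a RING domain and binds TRAF2 and cellular inhibitors of apoptosis. It measured 3.95, 3.02 and 4.85 CPM in vehicle libraries and 25.3, 34.2 and 29.3 CPM in TNF-alpha libraries. The gene lies on chromosome 2 (34941750 to 34961772, minus strand), and its log2 fold change was 2.91 ± 0.19 (adjusted p = 1.11e-05). Traf2, the ubiquitin-ligase adaptor of both TNF receptors, measured 49.5, 52.7 and 44.3 CPM in vehicle and 66.6, 69.5 and 65.7 CPM in TNF-alpha libraries (0.46 ± 0.07, adjusted p = 7.31e-04). Per kilobase, the level of Traf1 was 0.033 to 0.063 of that of Traf2 in vehicle and 0.220 to 0.284 in TNF-alpha libraries, a ratio chosen after its values were seen and not tested. Traf1 was the lowest of the 8 adaptors per kilobase of annotated exon in both groups, with a length of 8819 bases, and this place depends on the length used.

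Traf3, which holds the kinase NIK at low levels, went from 84.2 ± 7.47 to 128 ± 6.98 CPM, a log2 fold change of 0.60 ± 0.08 (adjusted p = 2.28e-04). Traf7 and Traf6 rose by 0.22 and 0.20 on the log2 scale (adjusted p = 0.0109 and 0.0225). Traf7 shares 267 exonic bases with Rab26 on the same strand and 110 with Caskin1 on the other, so the source of some reads is uncertain. Traf6 is also an adaptor of Toll-like and interleukin 1 receptors. Its call was lost without vehicle replicate 1 (0.0754), vehicle replicate 3 (0.0558), TNF-alpha replicate 2 (0.0818) and TNF-alpha replicate 3 (0.0965), within a range of 0.00793 to 0.0965. Traf4, the most abundant adaptor per kilobase in both groups, measured 149.7, 178 and 138 CPM in vehicle and 128, 110.4 and 101 CPM in TNF-alpha libraries, a fall of 1.37-fold without overlap (-0.45 ± 0.12, adjusted p = 0.0104). Tradd, which couples Tnfrsf1a and Tnfrsf25 to downstream kinases, measured 12.5, 14.1 and 13.1 CPM in vehicle and 14.8, 13.6 and 15.9 CPM in TNF-alpha libraries (log2 fold change 0.16, 95% interval -0.05 to 0.37, adjusted p = 0.183). Traf5 was not past the test either (0.13 ± 0.13, adjusted p = 0.449, and 0.0468 without TNF-alpha replicate 1, with a log2 fold change of 0.27, within a range of 0.0468 to 0.856).

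**Figure D3:**
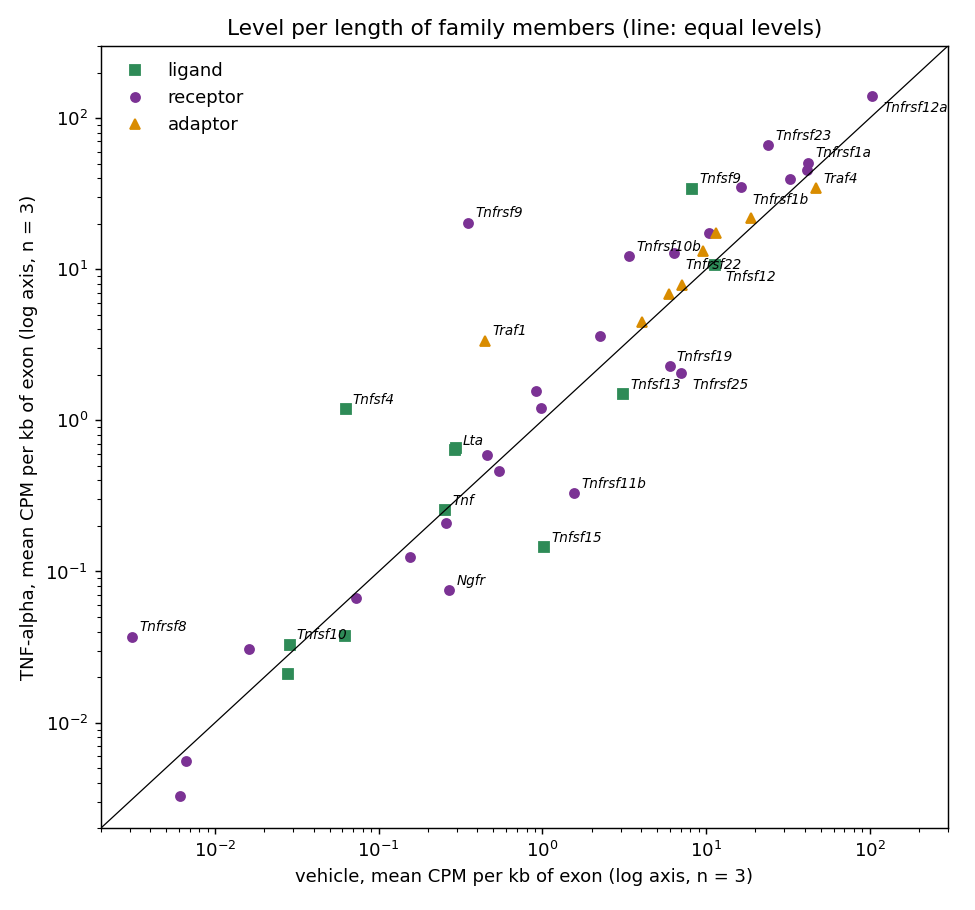
Mean CPM per kilobase of exon in vehicle (x axis) and TNF-alpha libraries (y axis), both log axes, for members above 0 in both groups, with squares for ligands, circles for receptors and triangles for adaptors. Points above the line had a higher mean after TNF-alpha: Tnfrsf9 lies at 0.350 and 20.3, Tnfsf4 at 0.0627 and 1.18, and Tnfrsf12a at 103 and 140.3.

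Levels per kilobase of exon set the members in order within a library. The length is the union of all annotated exons, which can exceed that of the transcript present. For Tnfrsf23 the union was 3962 bases and the longest protein-coding transcript 1476, so its rank is uncertain. The order of the members and the shares below depend on this choice of length. In vehicle libraries the receptor order was led by Tnfrsf12a (103 ± 6.30 CPM per kb, SD, n = 3), Tnfrsf1a (42.1 ± 2.40), Ltbr (41.4 ± 2.05), Eda2r (32.7 ± 3.53) and Tnfrsf23 (23.9 ± 1.78). The spreads of Tnfrsf1a and Ltbr overlapped. Within each vehicle library Tnfrsf1a lay slightly above Ltbr (40.92 and 40.61, 44.91 and 43.71, 40.59 and 39.85), which was not tested. In TNF-alpha libraries the order was Tnfrsf12a (140.3 ± 8.26), Tnfrsf23 (66.1 ± 0.66), Tnfrsf1a (50.5 ± 1.11), Ltbr (45.1 ± 3.01), Eda2r (39.5 ± 3.96) and Tnfrsf1b (34.8 ± 3.98), and the spread of Eda2r overlapped those of both Ltbr and Tnfrsf1b. In the second TNF-alpha library Eda2r (43.4) lay above Ltbr (42.1). Eda2r lay above Tnfrsf1b within each TNF-alpha library. Tnfrsf9 moved from rank 18 to rank 7 among the 27 receptors. Tnfrsf25 moved from rank 8 to 13 and Tnfrsf11b from 13 to 18.

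Tnfsf9 took the place of Tnfsf12 as the ligand with the largest share. Both shares are uncertain, since 731 of the 1515 exonic bases of Tnfsf12 are shared with Tnfsfm13 on the same strand, and Tnfsf9 overlaps Gm11110. Tnfsf12 held 45.9% ± 1.53 and Tnfsf9 33.2% ± 4.46 of the summed ligand level per kilobase in vehicle libraries (SD, n = 3). In TNF-alpha libraries Tnfsf9 held 69.0% ± 0.99 and Tnfsf12 21.7% ± 0.63, while Tnfsf15 went from 4.20% ± 0.67 to 0.296% ± 0.079. Tnf held 1.03% ± 0.22 and 0.518% ± 0.12. Among receptors, Tnfrsf12a held 34.4% ± 2.76 and 31.1% ± 1.46, Tnfrsf23 7.94% ± 0.33 and 14.6% ± 0.20, and Tnfrsf9 0.117% ± 0.021 and 4.50% ± 0.50. Shares within a family sum to a fixed whole, so a rise of 1 member lowers the others, and they are given here without a test.

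**Figure D4:**
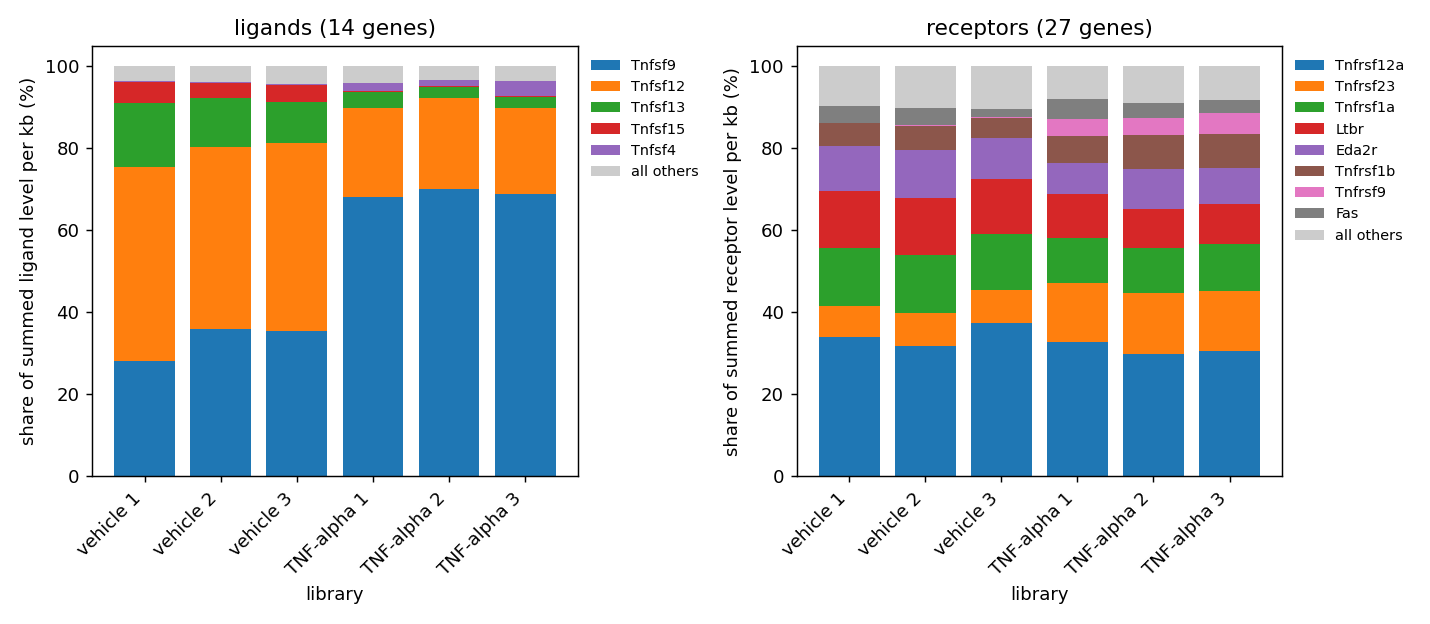
Stacked bars give, for each of the 6 libraries, the share (%) of the summed level per kilobase held by the leading ligands (left, 14 genes) and receptors (right, 27 genes). The Tnfsf9 band widens from a mean of 33.2% to 69.0%, and the Tnfrsf9 band is visible in the TNF-alpha libraries at a mean of 4.50%.

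The calls of ligands and their receptors are set side by side here. Both rose for Tnfsf9 with Tnfrsf9 and for Lta with Tnfrsf1a and Tnfrsf1b, and both fell for Tnfsf15 with Tnfrsf25. Tnf was not past the test, whereas the same 2 receptors rose. The ligand rose with its receptor not past the test for Tnfsf4 with Tnfrsf4 and for Tnfsf18 with Tnfrsf18. For Tnfsf12 with Tnfrsf12a and for Tnfsf10 with Tnfrsf10b, Tnfrsf22 and Tnfrsf23, the receptors rose and the ligand was not past the test. Tnfrsf11b, which also binds the products of Tnfsf10 and Tnfsf11, fell. Tnfsf13 fell, while its receptor genes Tnfrsf13b and Tnfrsf17 had almost no counts. A pass in 1 gene of a pair and not in the other does not show that they differ, and the difference was not tested.

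Members that neighbour each other on a chromosome, up to 831 kb apart, formed 13 pairs. Both members rose in 3 pairs, and 0 pairs held 1 risen and 1 fallen member. Taken singly, 19 of the 41 tested members rose, beside 27.6% of all genes tested. Whether neighbours move together was not tested. Both members rose for Tnfsf4 and Tnfsf18, for Tnfrsf22 and Tnfrsf23, and for Tnfrsf12a and Traf7, which lie 831 kb apart on chromosome 17. In the remaining pairs at least 1 member did not pass or was not tested, and no difference within a pair was tested. Among them were Lta, which rose, beside Tnf, and Tnfrsf1a, which rose, 35.5 kb from Ltbr on chromosome 6. For Tnfrsf4 with Tnfrsf18 and for Cd27 with Ltbr, neither member passed. Tnfrsf1b rose, and Tnfrsf8, 20.3 kb from it on chromosome 4, had few counts but more in each TNF-alpha library than in any vehicle library.

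Beyond the family, 65 further genes of TNF receptor signalling, from 6 lists that hold no family member, were examined. Of these, 61 were tested, of which 29 rose, 14 fell and the other 18 did not pass. Their median log2 fold change was 0.24, beside 27.6% risen, 27.9% fallen and a median of 0.0048 over all genes tested. These lists were chosen with results of these data known. In the list of kinases and ubiquitin ligases of the first receptor complex, 7 of 13 rose and 2 fell. Ikbkg, encoding the NF-kB regulator NEMO, rose from 88.9 ± 4.99 to 168 ± 12.2 CPM (n = 3; log2 fold change 0.92 ± 0.07, adjusted p = 1.55e-05), with decimal counts in all 6 libraries, and Tab2, a ubiquitin-binding subunit of the TAK1 kinase complex, by 0.58 ± 0.05. Tab1, another subunit of that complex, fell (log2 fold change -0.38, adjusted p = 4.08e-04).

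Of 12 brakes and deubiquitinases of that complex, 6 rose and 2 fell, beside 27.6% and 27.9% of all genes tested. Tnip3, an A20-binding inhibitor, had 8, 10 and 2 counts in vehicle and 298, 565 and 389 counts in TNF-alpha libraries (log2 fold change 5.99 ± 0.46, adjusted p = 2.31e-05). The vehicle counts of Tnip3 alone would not have passed the filter on low counts. Tank, a TRAF-binding regulator, rose by 0.90 ± 0.07 (adjusted p = 1.15e-05). Otulin, which removes linear ubiquitin chains, fell (log2 fold change -0.42, adjusted p = 3.84e-04). The death complex list held 10 genes, of which 3 rose and 2 fell (30% and 20%), near the 27.6% and 27.9% of all genes tested. Mlkl, the effector of necroptosis, rose from 16.2 ± 1.87 to 49.4 ± 0.42 CPM (adjusted p = 1.95e-06), and Cflar, encoding the caspase 8 inhibitor FLIP, by 0.45 ± 0.08 on the log2 scale, with decimal counts in all 6 libraries. Xiap, a caspase inhibitor, fell by 0.25 on that scale (adjusted p = 0.0169).

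In the non-canonical NF-kB list of 7 genes, 4 rose and 1 fell, beside 27.6% and 27.9% of all genes tested. Ikbke, encoding a kinase related to TBK1, rose by 2.09 ± 0.10 on the log2 scale (adjusted p = 1.03e-06), and Nfkb2, encoding p100, by 0.92 ± 0.10. Map3k14, encoding the kinase NIK, fell from 58.7 ± 4.77 to 31.1 ± 1.63 CPM (n = 3, log2 fold change -0.92 ± 0.08, adjusted p = 1.95e-05). A link between this fall and the rise of Traf3 was not tested. Of 8 genes for shedding of TNF and its receptors, 4 rose and 2 fell (50% and 25%, beside the same 27.6% and 27.9%). Adam17, the TNF-converting protease, rose by 0.48 ± 0.06 (adjusted p = 1.6e-04). Rhbdf2 and Rhbdf1, which encode the iRhom proteins that guide this protease to the cell surface, moved apart, with log2 fold changes of 1.00 ± 0.16 (adjusted p = 0.00137) and -0.68 ± 0.06 (adjusted p = 1.93e-05).

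The last list held 15 ligands and co-factors, of which 11 were tested, 5 rose and 5 fell, beside 27.6% and 27.9% of all genes tested. Edaradd, the adaptor of Edar, had 2 to 8 counts in vehicle and 15 to 34 in TNF-alpha libraries (log2 fold change 2.39 ± 0.54, adjusted p = 0.00511). The vehicle counts of Edaradd alone would not have passed the filter on low counts. Traf3ip3, encoding a TRAF3-interacting protein, fell (log2 fold change -2.001, adjusted p = 5.86e-06).

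**Figure D5:**
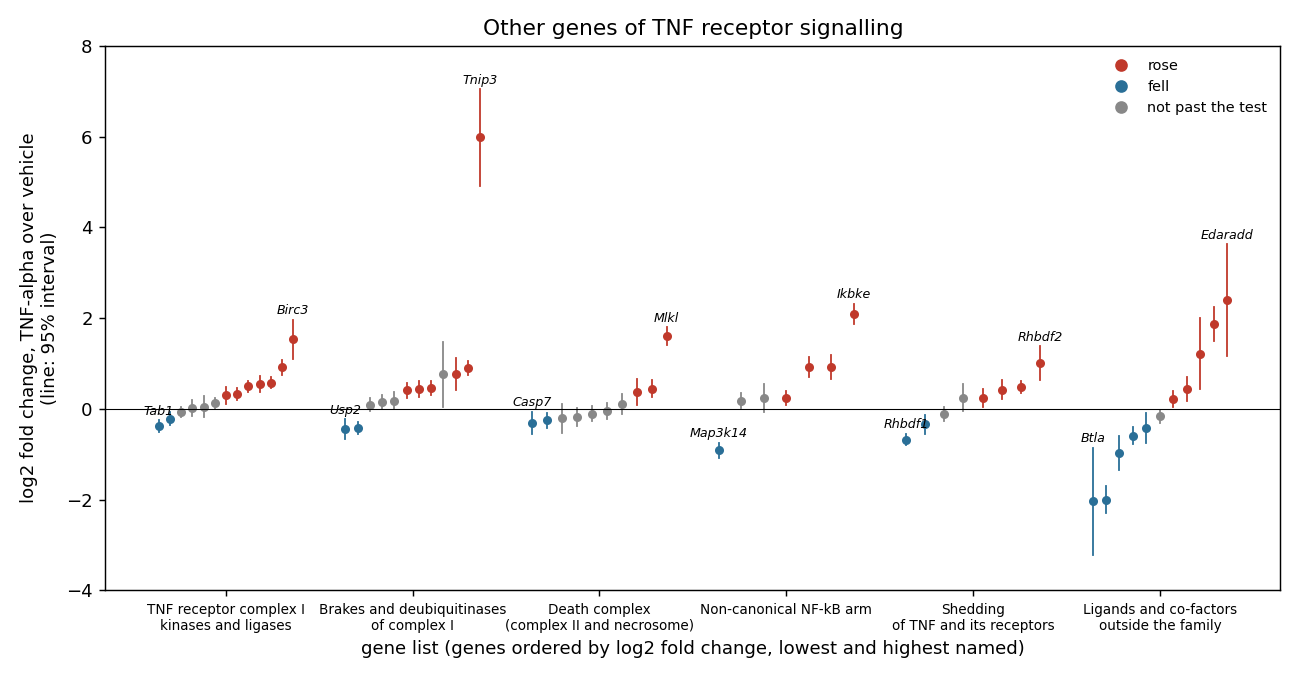
Log2 fold change (y axis, TNF-alpha over vehicle) with 95% intervals for the 61 tested pathway genes outside the family, in 6 lists along the x axis, ordered within a list and coloured by the edgeR call. Tnip3 at 5.99 is the highest point, and Ikbke lies at 2.09 and Traf3ip3 at -2.001.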

How the data were processed

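Messenger RNA of 3 vehicle and 3 TNF-alpha constructs was made into stranded libraries and read from both ends, per the labels' protocols. Values deposited by the authors are estimated counts: 20.1% to 21% of those in each library are not whole. The submitters' processing notes name mm10 and GRCm38 as builds, and as tools TopHat2 2.1.1, Bowtie2 2.3.5.1, featureCounts, Subread 2.0.0 and DESeq2. How strand and shared reads were counted is not given in the sources used here.

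Counts were rounded, filtered with filterByExpr, scaled with TMM and tested over all genes with edgeR 4.0.16 (R 4.3.3; glmQLFit with robust estimation, glmQLFTest, group as the only term) with Benjamini-Hochberg adjustment. The plan had assumed whole counts. Standard errors were derived from the F statistic. CPM were scaled with TMM, and levels per kilobase used the union of exons in GENCODE M21 (GRCm38). The procedure was also run on simulated counts, but no outcome of that run is given here. Other settings tried were scaling by median ratio or by upper quartile, dropping the filter or tightening it (1 CPM in 3 libraries), DESeq2 1.42.0, limma-voom (limma 3.58.1), no robust estimation, the replicate number as a block and leaving out each library. No pair of replicates was close enough to be copies of 1 library. Samples were grouped by title.

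Values of every library are given for called members that changed at least 2-fold and reached 1 CPM on average in either group, for Tnf, Tnfrsf1a, Tnfrsf1b, Tradd and Traf2, and for members at 0 in 1 group. Other members shown so (Lta, Fas, Ngfr, Cd40, Eda2r, Tnfrsf12a, Traf4 and Tnfrsf8) were chosen after their values were seen. Pathway genes named are, per list, the 2 of smallest p among those that moved the more common way and 1 that moved the opposite way. 1 gene of these is not reported here. Members and lists were chosen with earlier results of these data known.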

Additional observations from a re-analysis of the deposited data

How the results depend on the processing

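Over the 14 alternatives, 15 to 22 family members rose and 7 (6 with the stricter filter, 8 without vehicle replicate 1) fell, against 19 and 7. For the pathway genes the counts were 24 to 30 risen and 11 to 16 fallen, against 29 and 14. All were within 1.5 times the main counts. Over all genes tested, 20.7% to 30.6% rose and 21.6% to 30.2% fell in these fits. No called member reversed direction. Of the single values of tested members under an alternative, 537 kept their side of the threshold, 17 lost the call and 8 gained it. The members concerned were Cd40, Eda2r, Fas, Tnfsf13b, Tnfsf18, Traf5 and Traf6. With no filter on low counts, 22 members rose, the additions being Tnfsf11, Tnfsf14 and Tnfrsf8, each at 27 counts or fewer per library.

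The labels number the constructs 1 to 3 in each group. Same-numbered constructs did not deviate together (correlations of deviations from the group means 0.0767, -0.0772 and -0.0493), so the numbers were not taken as pairs. With the replicate block, 19 members rose and 7 fell, and 29 and 13 pathway genes did. In that fit Fas passed (adjusted p = 0.0228) and Cd40 did not (0.0543). Depth limits what could be seen in sparse members: at 27 to 48 counts per library the 95% interval for Tnf ran from -0.74 to 0.74, and that for Tnfsf10 from -0.69 to 1.09.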
